A study of Homo sapiens with 4 samples.

Results

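The genes described here decide whether a cell leaves G1 for S phase. They are the D cyclin genes CCND1 and CCND3, the E cyclin genes CCNE1 and CCNE2, the CDK inhibitor genes CDKN1A, CDKN1B and CDKN1C, the growth regulator MYC and MDM2, which encodes the ubiquitin ligase of p53. They were chosen by name from a list of 10 genes, of which 9 had values, among 19577 genes in all. CDKN2B was not analysed here. The cells were MCF10A, an untransformed human mammary epithelial line that carried an H2B-GFP marker, grown for 6 days as circular patches on fibronectin-coated dishes in medium with EGF, insulin, hydrocortisone and cholera toxin. In 2 patches (low-resolution replicates 1 and 2) bands of 1000 to 1500 µm were phototagged, and in the other 2 (high-resolution replicates 1 and 2) bands of 250 µm at the edge. Each patch was sorted into 1 plate of 384 wells and sequenced by SORT-seq, which counts each transcript once at its 3′ end by a unique molecular identifier (UMI). The plate was the replicate. Tagged populations were isolated by flow cytometry, so a plate holds a mix of sorted bands, whose shares are not given here. The band from which each cell came was not analysed here, so values are for all sorted cells of a patch.

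As background, cyclin D with CDK4 or CDK6 begins to phosphorylate the RB protein in response to growth factors such as EGF. E2F factors are then released and switch on CCNE1, CCNE2 and genes of DNA replication, and cyclin E with CDK2 completes the step into S phase. The CIP/KIP proteins p21 (CDKN1A), p27 (CDKN1B) and p57 (CDKN1C) inhibit these kinases. CDKN1A and MDM2 are both transcribed by p53, and MDM2 in turn marks p53 for destruction.

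Plates held between 11709628 and 14992348 counts. Of 1536 wells, 1146 passed the limits of 2000 to 9000 features and under 40% mitochondrial counts, with median depths per plate of 30520 to 41248 counts. All 4 plates used the same 384 well barcodes. Low-resolution replicate 1 lay on another flow cell than the other 3 plates, so in part experiment and flow cell cannot be told apart. Basal epithelial markers (KRT5, KRT14, KRT17, TP63, EGFR) summed to between 24.8 and 31.8 counts per 10000 in each plate. Luminal keratins (KRT8, KRT18, KRT19) summed to between 6.18 and 6.55. The sums of the fibroblast, leukocyte and endothelial markers were 0.0634 to 0.0901, 0.0639 to 0.0872 and 0.141 to 0.214. Of these markers, CD3E and CDH5 had 3 UMIs or fewer over all plates. Others were detected, and COL1A1 (fibroblast), CD68 (leukocyte) and PECAM1 (endothelial) had enough counts to be tested. These lists were therefore low but not absent.

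CDKN1A was the most abundant of these genes. Because each transcript is counted once at its end, these levels do not scale with gene length. How well each gene is captured and assigned can still differ and was not tested, so the order is one of counts. In counts per 10000 summed over the cells of a plate, CDKN1A stood at 4.45 and 4.36 in low-resolution replicates 1 and 2 and at 5.26 and 5.94 in high-resolution replicates 1 and 2. Its mean of 5.00 ± 0.746 (SD, n = 4) lay above 98.9% of the 19290 genes with a count. CCND1 followed at 1.39 ± 0.0767, and its 4 plates, between 1.33 and 1.50, overlapped with those of no other member. MDM2 came to 0.706 ± 0.0972 and CCND3 to 0.536 ± 0.0598, and the plates of these 2 genes overlapped. MYC was at 0.366 ± 0.0916, CDKN1B at 0.288 ± 0.0720, CDKN1C at 0.195 ± 0.0196 and CCNE2 at 0.159 ± 0.0414. In that order MYC and CDKN1B overlapped, as did CDKN1C and CCNE2. CCNE1 was lowest, at 0.0634 ± 0.0113, and its highest plate lay below the lowest plate of every other member.

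**Figure D1:**
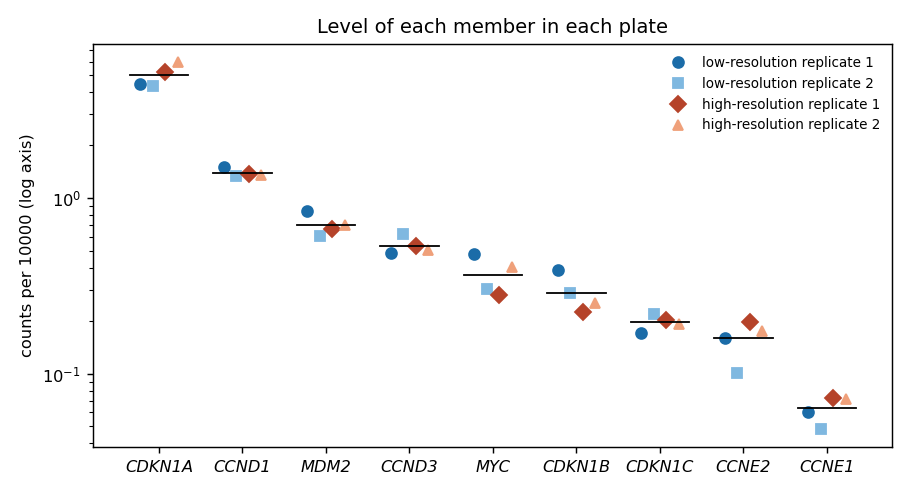
Level of each of the 9 genes in each of the 4 plates, in counts per 10000 on a log axis. Points are plates, blue for low and red for high resolution, and lines are means. CDKN1A lies between 4.36 and 5.94 and CCNE1 between 0.0486 and 0.0726.

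The level of a gene can be spread evenly over cells or held by few. CDKN1A had a UMI in 96.2% to 98.98% of the cells of a plate and CCND1 in 87.8% to 94.5%. By contrast, CCNE1 had one in 11.1% to 21.5%, CCNE2 in 15.9% to 30.03% and CDKN1C in 22.3% to 32.4%. Exact binomial 95% intervals, taken over the 4 plates, ran from 7.59% to 26.7% for CCNE1. They cover counting error only. At an equal depth of 10000 UMIs per cell the shares were 2.44% to 6.87% for CCNE1, 4.85% to 15.1% for CCNE2 and 9.06% to 15.1% for CDKN1C. The 10% of cells with the most UMIs of CDKN1C held 71.3% to 79.3% of its UMIs, and the same measure was 29.9% to 33.3% for CCND1. A single cell held up to 22 UMIs of CDKN1C in the plate where this was largest.

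One comparison asks how each gene stands in cells that score as replicating their DNA or as dividing. Every cell was scored with published S and G2/M gene lists from which CCNE2, PCNA and MKI67 had been taken out, leaving 41 and 53 genes. Cells were put in the S class or the G2/M class by the higher score above 0, and in the G1 class where neither was above 0. These classes are ranges of a score, and the G1 class does not separate cycling from resting cells. In low-resolution replicates 1 and 2 the S class held 14.8% and 12.2% of cells, and in high-resolution replicates 1 and 2 it held 23.02% and 22.5%. Cells of the S and G2/M classes were deeper, with median depths of 40433 to 57286 counts against 26245 to 34185 in the G1 class, and had lower median mitochondrial shares (25.9% to 28.7% against 30.7% to 32.2%). The part of this in the results was not tested, apart from the repeats at equal depth.

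Both E cyclin genes rose steeply in the S class. CCNE2 stood at 0.0176, 0.0297, 0.0443 and 0.0402 counts per 10000 in the G1 class of low-resolution replicates 1 and 2 and high-resolution replicates 1 and 2. In the S class of the same plates, in the same order as used for all such lists, it stood at 0.683, 0.488, 0.546 and 0.559. The classes did not overlap, and CCNE2 was 16.8-fold higher in the S class (log2 fold change 4.07, SE 0.194, FDR = 1.25e-13, edgeR quasi-likelihood test with plate as a block and Benjamini-Hochberg adjustment). CCNE1 rose 12.9-fold, from 0.0141, 0.00938, 0.0231 and 0.0157 to 0.228, 0.231, 0.178 and 0.196 (log2 fold change 3.69, SE 0.245, FDR = 3.38e-11). These G1 class values of CCNE1 rest on 8, 6, 12 and 9 counts. At 10000 UMIs per cell the log2 fold changes were 4.34 and 3.46, so the rise remained at equal depth. Of the cells with a CCNE1 UMI, 58.5% to 63.3% fell in the S class, and 66.7% to 76.2% also held a CCNE2 UMI, against 15.9% to 30.03% of all cells. For scale, PCNA, the sliding clamp of DNA polymerase, rose 8.24-fold and MKI67, the Ki-67 gene, 11.6-fold. CCNE2, PCNA and MKI67 stood on the published lists before they were taken out. Their rise in the S and G2/M classes is thus in part fixed by the choice of lists.

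E2F factors bind motifs with a GC-rich core, and the promoters below were searched for them on both strands. They belong to CCNE1, which rose sharply in the S class, and CDKN1A, the most abundant member, which also passed there (log2 fold change 0.52). Capitals mark GCGGGA, a core shared by E2F sites, or its reverse complement. Both windows are from RefSeq (GRCh38.p14), run from 250 bases before to 50 after a transcription start and are read on the + strand, CCNE1 from chr19:29811741-29812040 and CDKN1A from chr6:36678464-36678763.
CCNE1: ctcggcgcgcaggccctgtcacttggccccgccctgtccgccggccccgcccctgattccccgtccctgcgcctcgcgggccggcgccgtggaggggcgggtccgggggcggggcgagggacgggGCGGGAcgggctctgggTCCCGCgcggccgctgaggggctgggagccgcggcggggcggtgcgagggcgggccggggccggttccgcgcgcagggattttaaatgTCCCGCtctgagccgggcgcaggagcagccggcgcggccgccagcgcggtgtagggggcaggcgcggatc
CDKN1A: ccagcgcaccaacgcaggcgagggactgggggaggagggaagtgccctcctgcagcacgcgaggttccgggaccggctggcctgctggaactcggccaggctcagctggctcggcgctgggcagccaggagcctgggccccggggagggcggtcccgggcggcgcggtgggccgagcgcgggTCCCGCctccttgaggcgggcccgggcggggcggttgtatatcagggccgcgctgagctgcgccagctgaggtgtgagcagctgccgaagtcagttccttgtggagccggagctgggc

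The CCNE1 window held 3 matches and the CDKN1A window 1. Of 35116 promoter windows of the same length, 1.87% held at least 3 matches and 26.9% at least 1. The longer words TTTCCCGC, TTTCGCGC, TTTGCCGC and TTTGGCGC had no match in either window and at least 1 in 3.31% of all windows. The Sp1-type GC box GGGCGG, which can overlap GCGGGA, had 7 matches in CCNE1 and 4 in CDKN1A, numbers reached by 1.50% and 9.06% of windows. MDM2, which did not pass in the S class, had windows with 2 matches to GCGGGA and others with 1 match to the longer words. CCND3, which passed in the S class, had 1 match to GCGGGA in 1 window and 0 in others. CDKN1B, which did not pass, had 1. Promoters of CCNE2, MYC, CCND1 and CDKN1C were not searched, so no relation between matches and the S class is read from these windows. A match is a string of letters and not a site shown to be bound. In GENCODE 29 on GRCh38 CCNE1 and CDKN1A are protein-coding genes on the + strand, CCNE1 at chr19:29811898-29824308 and CDKN1A at chr6:36676460-36687339.

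The D cyclins moved in opposite directions. CCND3 rose 1.38-fold in the S class, from 0.455, 0.552, 0.505 and 0.460 to 0.626, 0.929, 0.615 and 0.627, with no overlap (FDR = 0.000296). CCND1 fell, from 1.63, 1.42, 1.26 and 1.50 to 1.05, 0.989, 1.52 and 1.05 (log2 fold change -0.34, SE 0.108, FDR = 0.0149). High-resolution replicate 1 went the other way for CCND1, and its call was lost without either low-resolution plate (FDR = 0.105 and 0.0807) or without high-resolution replicate 2 (FDR = 0.107). When cells were split by tertiles of the S score instead, CCND3 (FDR = 0.0571) and CCND1 (FDR = 0.0759) both missed the threshold of 0.05. CCND3 also missed it at equal depth (FDR = 0.0610).

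MYC was lower in the S class in all 4 plates. It fell from 0.579, 0.324, 0.295 and 0.503 to 0.259, 0.132, 0.247 and 0.299, and the lowest plates of the G1 class overlapped with the highest of the S class (log2 fold change -0.79, SE 0.150, FDR = 0.000174). By tertiles of the S score the log2 fold change was -0.31 (FDR = 0.0623).

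Of the CDK inhibitors, CDKN1A passed the test in the S class. It stood at 3.77, 4.39, 5.67 and 5.24 in the G1 class and at 8.10, 4.96, 5.48 and 9.27 in the S class (log2 fold change 0.52, SE 0.127, FDR = 0.00200). The plates were uneven: the log2 ratios were 1.10 in low-resolution replicate 1 and 0.82 in high-resolution replicate 2, but 0.18 and -0.05 in the remaining plates. By tertiles of the S score the difference was 0.04 (FDR = 0.791), and with DESeq2 the FDR was 0.0522. CDKN1B had a log2 fold change of 0.12 (FDR = 0.501) and CDKN1C of -0.23 (FDR = 0.430). Without low-resolution replicate 1, CDKN1C was lower in the S class (-0.65, FDR = 0.0138). MDM2 gave 0.19 (FDR = 0.269). In all, 4 of 9 members rose and 2 fell in the S class, against 42.8% of the 11111 genes tested (21.6% higher and 21.2% lower).

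**Figure D2:**
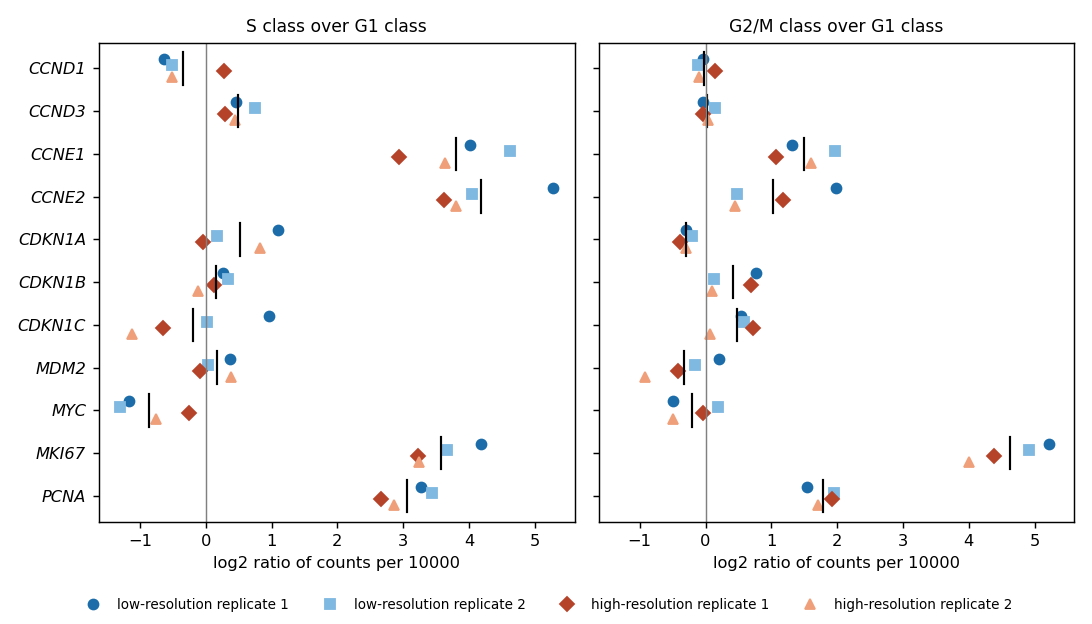
Log2 ratio of counts per 10000 in the S class (left) and G2/M class (right) over the G1 class, per gene. Points are plates and black lines are means over 4 plates. CCNE1, CCNE2, MKI67 and PCNA lie above 0 in both panels, and MYC lies below 0 in every plate on the left.

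In the G2/M class the E cyclins were lower than in the S class but still above G1. CCNE1 stood at 0.0349, 0.0368, 0.0487 and 0.0477 (2.73-fold above G1, FDR = 0.000880) and CCNE2 at 0.0698, 0.0414, 0.101 and 0.0546 (1.96-fold, FDR = 0.00691). MKI67 rose 23.7-fold and PCNA 3.39-fold. At equal depth the FDR of CCNE1 was 0.277. The size depended on the split: by tertiles of the G2/M score the log2 fold changes were 2.72 for CCNE1 and 3.52 for CCNE2, against 1.45 and 0.97 by class.

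CDKN1B, whose protein p27 is degraded as cells enter S phase, rose in the G2/M class. Its levels were 0.325, 0.270, 0.189 and 0.252 in the G1 class and 0.550, 0.294, 0.305 and 0.268 in the G2/M class (log2 fold change 0.40, SE 0.128, FDR = 0.0135). Every plate was higher, yet 2 plates by little, and without low-resolution replicate 1 the FDR was 0.172 and without high-resolution replicate 1 it was 0.0705. CDKN1A fell, from 3.77, 4.39, 5.67 and 5.24 to 3.06, 3.83, 4.34 and 4.27 (log2 fold change -0.33, SE 0.127, FDR = 0.0406), and was lower in every plate. Its p53 partner MDM2 also fell, from 0.769, 0.624, 0.728 and 0.764 to 0.882, 0.557, 0.542 and 0.405 (log2 fold change -0.36, SE 0.138, FDR = 0.0383), with low-resolution replicate 1 going the other way. Without high-resolution replicate 1 or 2 the FDR was 0.0711 or 0.0850 for CDKN1A and 0.120 or 0.333 for MDM2. With DESeq2, CDKN1A (FDR = 0.244), MDM2 (FDR = 0.0782) and CDKN1B (FDR = 0.0562) missed the threshold. CDKN1C had a log2 fold change of 0.45 (FDR = 0.0684), MYC of -0.28 (FDR = 0.0963), CCND1 of -0.06 (FDR = 0.659) and CCND3 of 0.01 (FDR = 0.972). Other settings brought some of these past the threshold. At equal depth CDKN1C (0.73, FDR = 0.0330) and MYC (-0.65, FDR = 0.0165) passed. By tertiles of the G2/M score MYC (-0.44, FDR = 0.00995) and CCND1 (-0.26, FDR = 0.0212) passed, and CDKN1A gave -0.05 (FDR = 0.718). With a plate left out, CDKN1C passed without high-resolution replicate 2 (FDR = 0.0304) and MYC without low-resolution replicate 2 (FDR = 0.0205). Of the 9 members 3 rose and 2 fell, against 43.5% of all genes tested (21.8% higher and 21.7% lower).

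From cell to cell, the closest pairs were the E cyclins and CDKN1A with MDM2, in an order that turned with depth. Spearman's rho across the cells of a plate (1146 cells over the 4 plates) was 0.478, 0.327, 0.448 and 0.449 for CDKN1A with MDM2, and 0.461, 0.504, 0.405 and 0.533 for CCNE1 with CCNE2. These are descriptions of each plate, since its cells share a library and differ in depth. At 10000 UMIs per cell the means over plates were 0.293 for the first pair and 0.257 for the second. Over the remaining pairs of members the mean rho lay between -0.11 and 0.16.

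Against the proliferation markers, CCNE2 had a mean rho of 0.527 ± 0.046 (SD over 4 plates) with PCNA and 0.334 ± 0.086 with MKI67. CCNE1 gave 0.410 ± 0.038 and 0.280 ± 0.057. CCND3 gave 0.164 ± 0.047 and 0.093 ± 0.042, positive in all 4 plates. CDKN1A had a rho with PCNA of 0.322 and 0.273 in low-resolution replicate 1 and high-resolution replicate 2 but 0.143 and 0.012 in low-resolution replicate 2 and high-resolution replicate 1. These are the same plates that differed in the S class. MYC, CDKN1B and CDKN1C had mean rhos between -0.05 and 0.10 with both markers, and CCND1 had -0.077 with PCNA and -0.039 with MKI67. E cyclin levels also went with depth (mean rho 0.304 for CCNE1 and 0.264 for CCNE2). All these rhos are at full depth. The rhos of the members with the markers, the scores and depth were repeated at 10000 UMIs per cell. There 29 moved by more than their SD over plates and 61 did not.

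**Figure D3:**
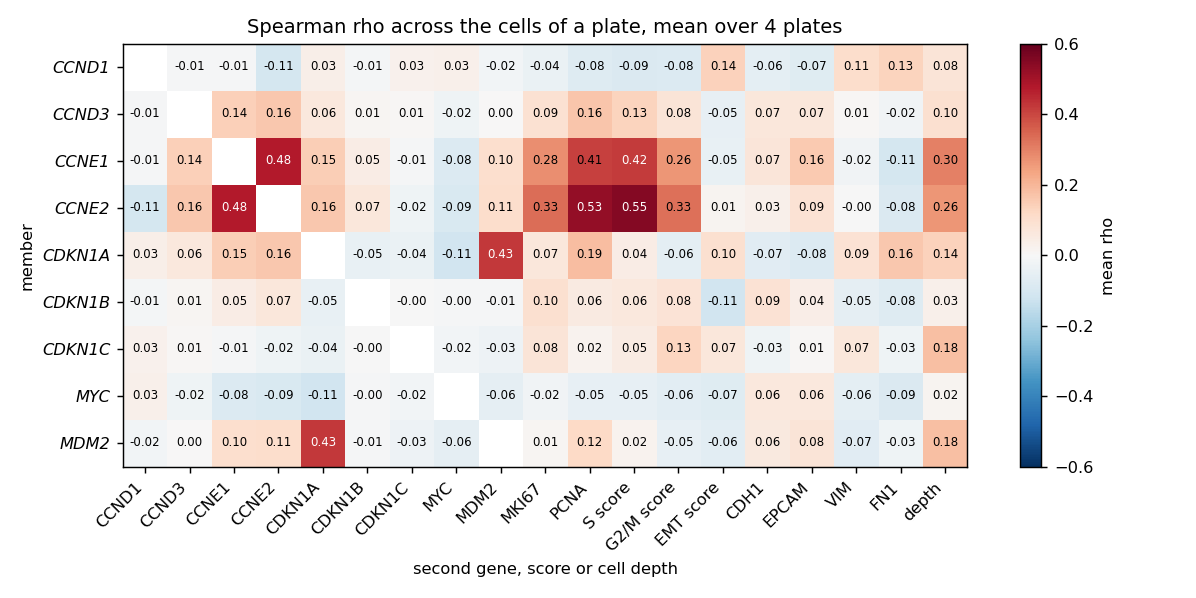
Mean over 4 plates of Spearman's rho across cells, for each gene (vertical axis) with each other gene, the reference genes, the S, G2/M and EMT scores and cell depth (horizontal axis). The pair of CDKN1A and MDM2 (0.43) and the block of CCNE1, CCNE2, PCNA and the S score stand out. All values are at full depth.

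Likeness was ranked by mean rho among the 8032 genes that 20% or more of the cells in each plate expressed with a UMI. The ranking was made at full depth only. The gene most like CDKN1A was GDF15, a stress-induced cytokine, with a mean rho of 0.525, ahead of MDM2. For CCND1 it was PMEPA1, a TGF-beta target (0.288). CCND3 was most like E2F1 (0.167) and PCNA (0.164). For CDKN1B they were WEE1, the kinase that holds CDK1 inactive (0.208), and the cohesin subunit RAD21 (0.200). MYC was most like the immediate-early phosphatase gene DUSP1 (0.175). For CDKN1C, NUDT1 (0.194) and PPIA (0.183) came first. CCNE1, present in too few cells, and CCNE2, for the same reason, were not ranked.

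Another comparison sets the genes against the epithelial-to-mesenchymal transition (EMT). Each cell had an EMT score, a mesenchymal minus an epithelial gene set variation score, and none of these genes is in either set. The cells of each plate were divided into tertiles of equal size by this score, and the top tertile was compared with the bottom tertile. In the top tertile VIM stood at 2.03 to 4.12 counts per 10000 and CDH1 at 0.0211 to 0.0854, against 0.0396 to 0.0757 and 0.920 to 1.32 in the bottom tertile, which the score itself fixes. Median mitochondrial shares were 25.9% to 29.3% in the top and 31.7% to 33.6% in the bottom tertile. G2/M class cells made up 17.8% to 35.1% of the top and 8.79% to 21.6% of the bottom tertile. S class cells made up 12.2% to 25.8% and 6.59% to 21.4%. The part of the mitochondrial share in the results was not tested, and a repeat within the G1 class left out the cells of the other phase classes.

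In mesenchymal-scoring cells 4 of 9 members fell and none rose, while 20.9% of the 11224 genes tested fell and 20.5% rose. MDM2 fell from 0.876, 0.579, 0.677 and 0.796 in the bottom tertile to 0.753, 0.539, 0.543 and 0.581 in the top tertile, lower in every plate (log2 fold change -0.37, SE 0.0926, FDR = 0.00542). CDKN1B fell from 0.454, 0.342, 0.222 and 0.310 to 0.311, 0.246, 0.240 and 0.218, lower in 3 of 4 plates (log2 fold change -0.45, SE 0.123, FDR = 0.00874). MYC fell from 0.469, 0.280, 0.335 and 0.487 to 0.485, 0.243, 0.208 and 0.320 (log2 fold change -0.45, SE 0.142, FDR = 0.0213). The log2 ratios of MYC were 0.05 and -0.20 in low-resolution replicates 1 and 2 and -0.69 and -0.61 in high-resolution replicates 1 and 2, and the test of a difference between experiments did not pass (FDR = 0.158). CCND3 fell from 0.527, 0.681, 0.594 and 0.552 to 0.479, 0.600, 0.511 and 0.467, lower in every plate by a small and even step (log2 fold change -0.28, SE 0.0844, FDR = 0.0149).

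Leaving out 1 plate ended 3 of these calls. CCND3 was lost without low-resolution replicate 1 (FDR = 0.0506), high-resolution replicate 1 (FDR = 0.0596) or high-resolution replicate 2 (FDR = 0.0583). CDKN1B was lost without low-resolution replicate 1 (FDR = 0.0737) or high-resolution replicate 2 (FDR = 0.0602), and MYC without either high-resolution plate (FDR = 0.123 for each). MDM2 held with each plate left out in turn. All 4 missed the threshold when cells were split at the median of the score instead, with FDRs of 0.0522 to 0.137.

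The remaining 5 genes did not pass. CCND1 was higher in the top tertile of every plate, at 1.71, 1.56, 1.55 and 1.50 against 1.52, 1.16, 1.15 and 1.25 (log2 fold change 0.23, SE 0.0908, FDR = 0.0533). It passed with RLE scaling (FDR = 0.0424), with no mitochondrial limit (FDR = 0.0318), on whole UMIs (FDR = 0.0401) and without low-resolution replicate 1 (FDR = 0.0250). CDKN1C had a log2 fold change of 0.49 (SE 0.246, FDR = 0.126), and passed with a mean z-score (0.63, FDR = 0.0295), with no filter on low counts (FDR = 0.0106) and without high-resolution replicate 1 (0.74, FDR = 0.0177). CDKN1A gave a log2 fold change of 0.14 (FDR = 0.317). CCNE1 had -0.56 (FDR = 0.0952) and CCNE2 0.03 (FDR = 0.928). MKI67 was higher in the top tertile of all 4 plates, but its log2 fold change of 0.38 did not pass either (FDR = 0.113).

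**Figure D4:**
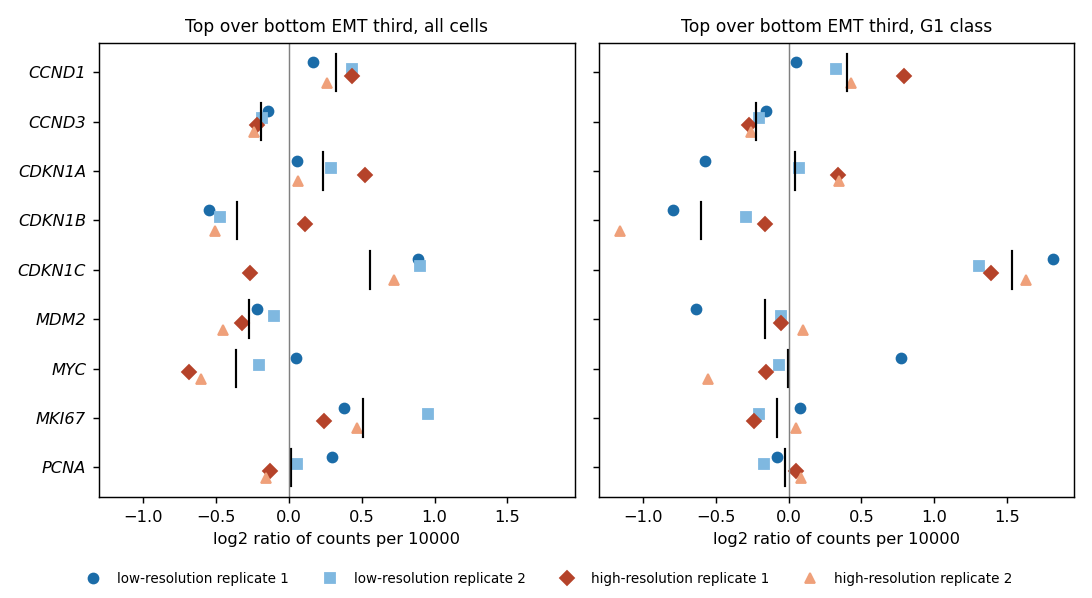
Log2 ratio of counts per 10000 in the top over the bottom tertile of the EMT score, in all cells (left) and with tertiles taken within the G1 class (right), for the genes other than the E cyclins. Points are plates and black lines are means. CDKN1C lies between 1.31 and 1.81 in every plate on the right, while MYC is at both sides of 0.

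Within the G1 class alone CDKN1C, the imprinted p57 gene, passed the test. With tertiles taken among G1 class cells, CDKN1C stood at 0.0758, 0.101, 0.0902 and 0.102 in the bottom tertile and at 0.267, 0.250, 0.236 and 0.317 in the top tertile. The tertiles did not overlap, and the top tertile was 1.47 higher on the log2 scale (FDR = 0.000216). Median mitochondrial shares still differed there, at 26.4% to 31.02% in the top and 33.5% to 34.4% in the bottom tertile, and their part in the results within the G1 class was not tested. Few cells carried the CDKN1C difference. In the top tertile 14, 14, 16 and 19 cells held a CDKN1C UMI, of 50 to 65 cells, against 12, 12, 12 and 10 in the bottom tertile. One cell held 22 of the 46 UMIs in the top tertile of low-resolution replicate 1. Leaving out the highest cell of each tertile gave log2 ratios of 1.17, 1.49, 0.95 and 2.29, all still above 0. Cells with 3 or more UMIs numbered 3, 6, 4 and 6 in the top tertile and 1, 3, 1 and 1 in the bottom tertile.

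CCND1 and CDKN1B also differed within the G1 class. CCND1 rose from 1.61, 1.30, 0.924 and 1.33 to 1.67, 1.62, 1.60 and 1.79 (log2 fold change 0.32, FDR = 0.0259), and CDKN1B fell from 0.370, 0.294, 0.180 and 0.358 to 0.214, 0.240, 0.161 and 0.161 (log2 fold change -0.67, FDR = 0.00675). CDKN1B was lower in every plate here. MYC (-0.06, FDR = 0.850), MDM2 (-0.23, FDR = 0.160) and CCND3 (-0.29, FDR = 0.0542) no longer passed. CDKN1A gave -0.04 (FDR = 0.877). MKI67 was even across these tertiles, at 0.120, 0.130, 0.196 and 0.165 in the bottom and 0.127, 0.113, 0.167 and 0.171 in the top tertile.

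**Figure D5:**
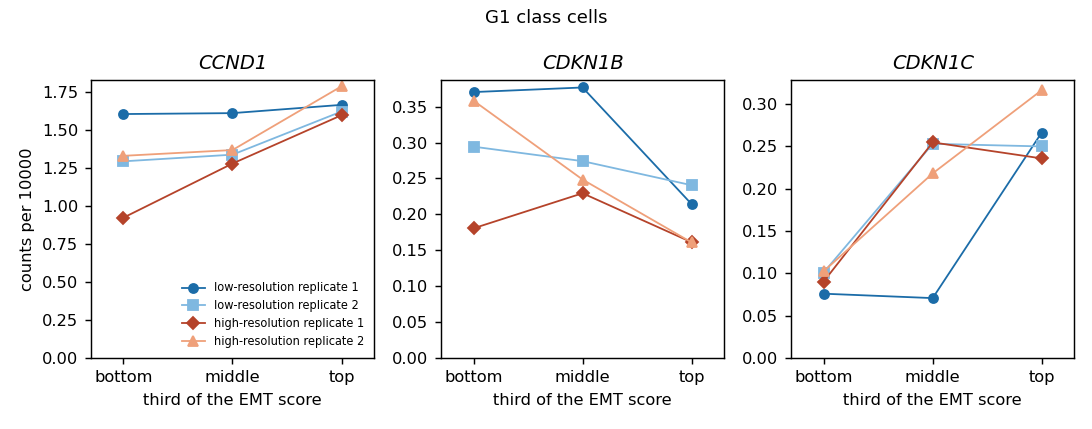
Counts per 10000 of CCND1, CDKN1B and CDKN1C in G1 class cells by tertile of the EMT score, 1 line per plate. CDKN1C is at 0.0758 to 0.102 in the bottom and 0.236 to 0.317 in the top tertile, and CDKN1B is lower in the top than in the bottom tertile of each plate.

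A further comparison is between plates of the 2 experiments. CDKN1A, at 5.26 and 5.94 in the high-resolution and 4.45 and 4.36 in the low-resolution plates, was the one member that passed (1.30-fold higher, log2 fold change 0.38, SE 0.107, FDR = 0.0364), against 12.4% of the 12437 genes tested, or 6.26% counting higher genes only. The call was lost without low-resolution replicate 1 (FDR = 0.126), low-resolution replicate 2 (FDR = 0.0777) or high-resolution replicate 2 (FDR = 0.255). In G1 class cells CDKN1A stood at 5.67 and 5.24 in the high-resolution and 3.77 and 4.39 in the low-resolution plates, which did not overlap, while in the S class it stood at 5.48 and 9.27 against 8.10 and 4.96, which did. Markers of EMT also differed between experiments: VIM (log2 fold change 0.94, FDR = 0.00117) and FN1 (0.77, FDR = 0.00127) were higher and CDH1 lower (-0.68, FDR = 0.00321) in the high-resolution plates, while EPCAM gave -0.11 (FDR = 0.566). The part of this in the CDKN1A result was not tested, nor was that of the bands sorted into each plate. A plate sum cannot tell more cells that express a gene from more RNA per cell.

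CCNE2 and CDKN1B came near the threshold. CCNE2 stood at 0.198 and 0.176 in the high-resolution and 0.160 and 0.101 in the low-resolution plates (log2 fold change 0.56, FDR = 0.0902). Within the S class it was 0.546 and 0.559 against 0.683 and 0.488, which overlapped, and within the G1 class 0.0443 and 0.0402 against 0.0176 and 0.0297, which did not. CDKN1B was at 0.225 and 0.252 against 0.389 and 0.286 (log2 fold change -0.46, FDR = 0.0743). The call for CDKN1B was gained without low-resolution replicate 2 (-0.63, FDR = 0.0314), and without low-resolution replicate 1 its log2 fold change was -0.26. Of the proliferation markers, PCNA gave 0.37 (FDR = 0.0784) and MKI67 0.27 (FDR = 0.276), and without low-resolution replicate 1 these and CCNE2 passed (FDR = 0.0279, 0.0235 and 0.0268). The log2 fold changes of CCND1, CCND3, CDKN1C, MYC and MDM2 lay between -0.15 and 0.05, with FDRs from 0.677 to 0.935.

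Whether the EMT differences themselves differed between experiments was tested as an interaction. The EMT score was fitted within each experiment, so tertiles are not matched in EMT state between experiments. G1 class cells made up 82.5% and 84.6% of the bottom tertile in low-resolution replicates 1 and 2. In high-resolution replicates 1 and 2 they made up 59.8% and 62.2%. In the top tertile of the same plates they made up 60.8%, 70%, 45.4% and 42.3%. The part of this in the interaction was not tested. With edgeR 0 of 9 members passed, against 3.47% of 11224 genes (0.873% higher and 2.60% lower). MYC had the lowest FDR, 0.158, and was 1 member of 9 under 0.05 before adjustment. Its top-to-bottom difference was 0.60 lower on the log2 scale in the high-resolution plates (log2 difference -0.60, SE 0.222). DESeq2 also called 0 members, and gave no adjusted p for CCNE1, CCNE2, CDKN1B, CDKN1C and MYC. The difference for CDKN1C was -0.58 (SE 0.424, FDR = 0.553).

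The wider pathway was read from lists chosen with earlier results of these data known. Their counts stand beside the share of all genes called, which was 42.8% in the S class, 43.5% in the G2/M class, 41.4% by EMT tertile and 12.4% between experiments. Of 25 genes of the G1 to S machinery tested, 18 rose and none fell in the S class, led by E2F2 (20.5-fold), the A-type cyclin CCNA2 (13.3-fold), the phosphatase CDC25A that activates CDK2 (12.97-fold) and the repressor E2F7 (10.8-fold). In the G2/M class 19 rose and none fell. In the top EMT tertile 5 rose and 2 fell, a smaller share than the 41.4% of all genes, with the p19 inhibitor CDKN2D lower (log2 fold change -1.15) and CDK4, the partner of D cyclins, higher (0.68). Between experiments 5 of 25 were higher in the high-resolution plates and none lower, where 6.26% of all genes were higher. They included E2F7 (1.69-fold), CDK4 (1.57-fold, FDR = 0.00315), CDK2 (1.49-fold) and E2F1 (1.46-fold). The EMT difference of CDK4 was 0.86 lower in the high-resolution plates on the log2 scale (log2 difference -0.86, FDR = 0.00175).

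Of 27 p53 pathway genes, 9 rose and 7 fell in the S class and 3 rose and 10 fell in the G2/M class, against 42.8% and 43.5% of all genes called. TP53INP1, which promotes p53 activity, fell in both (log2 fold changes -1.31 and -1.84). In the top EMT tertile 8 rose and 3 fell, a share near the 41.4% of all genes, with the damage recognition gene DDB2 (2.19-fold) and GADD45A (1.78-fold) higher and the kinase PLK2 lower (log2 fold change -1.03). Between experiments 2 rose and 2 fell.

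The MYC network, which pairs or competes with MYC through MAX, gave 2 higher and 4 lower of 8 in the S class and 1 higher and 4 lower in the G2/M class, where 42.8% and 43.5% of all genes were called. MXD3 rose 6.59-fold and 9.29-fold, while MXD4 fell (log2 fold changes -0.68 and -0.86). In the top EMT tertile 1 rose and 2 fell, a share below the 41.4% of all genes, and 0 of 8 passed between experiments, where 12.4% of all genes did. Of 19 growth genes often listed as MYC targets, 14 rose and 1 fell in the S class, where MYC itself was lower. In the G2/M class 15 rose and 1 fell, in the top EMT tertile 5 rose and 1 fell, a share below the 41.4% of all genes, and 8 were higher in the high-resolution plates, where 6.26% of all genes were. In the interaction 12 of 19 had a lower EMT difference in the high-resolution plates, with a median log2 difference of -0.68, against 2.60% of all genes lower and a median of -0.05. Those named by the rule were NOP16 (-1.10), BOP1 (-0.92), SRM (-0.83) and HSPD1 (-0.81). The phase classes made up unlike shares of the tertiles in each experiment, and their part in this was not tested.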

How the data were processed

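Single MCF10A cells were sequenced by SORT-seq, 1 plate per patch and 2 biological replicates per experiment. Between experiments p-values set the difference of means against the spread between plates. Between classes of the same plates they set the mean class difference against how unevenly classes vary over plates. The estimates of spread borrow from other genes, so a low p-value does not show that the plates were even. Deposited values were expected counts per gene and well: the authors' provider counted distinct UMIs and corrected them for UMIs drawn more than once. Undoing this with 4096 UMI sequences gave whole UMIs for all 7245730 values within 1e-09. Per the labels, STAR 2.7.3a and hg38 were used, with no role given; the annotation is not given in the sources used here. Plates held 11709628 to 14992348 expected counts, spike-ins included at 0.833% to 1.38%. Genes with few counts are limited by depth.

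Levels are expected counts per 10000, spike-ins left out. For tests, expected counts were summed per plate and class, rounded, filtered with filterByExpr, scaled by TMM (a library size correction) and fitted with the edgeR 4.0.16 quasi-likelihood test in R 4.3.3, with Benjamini-Hochberg adjustment over all genes tested (FDR) and 0.05 as the threshold. Plate was a block between classes of the same plates. Phase or EMT list genes were left out of the table tested on that score. Phase scores used the module score with 24 bins, and the EMT score used 57 epithelial and 59 mesenchymal genes. All scores were fitted within each experiment. No doublet caller was run. DESeq2 1.42.0 and other settings were alternatives. The tests were tried on simulated counts first.

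Genes named were the members, MKI67, PCNA, CDH1, EPCAM, VIM and FN1, up to 4 genes per list past the threshold with the largest fold change, and the 2 genes most like each member, of which some are not reported here. Members and lists were chosen with earlier results of these data known. The well barcode table was not used.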

Additional observations from a re-analysis of the deposited data

Results flagged for a closer look

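CDKN1C differed between plates in the S class, where its test over all plates did not pass (edgeR FDR = 0.430). Its log2 ratio of S over G1 class was 0.97 and 0.02 in low-resolution replicates 1 and 2 and -0.65 and -1.12 in high-resolution replicates 1 and 2. The mean of the high-resolution plates was lower than that of the low-resolution plates (log2 difference -1.38). Both plates of an experiment lay on the same side of 0, which drew attention to it, and the difference itself was not tested. Low-resolution replicate 2 was close to 0, so the positive side rests on 1 plate.

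CDKN1A was also present in wells left out of every comparison, those with 40% or more mitochondrial counts. It stood there at 3.42 and 3.45 counts per 10000 in low-resolution replicates 1 and 2 and at 3.96 and 4.88 in high-resolution replicates 1 and 2, a mean of 3.93, from 41, 50, 43 and 33 wells. In the kept cells, with the same denominator that includes spike-ins, it stood at 4.40, 4.30, 5.22 and 5.90. Mitochondrial counts are part of that denominator, so levels of nuclear genes in the left-out wells are lowered by how the wells were chosen. CCND1 (0.795 to 1.15 against 1.31 to 1.49) and MDM2 (0.372 to 0.535 against 0.604 to 0.830) were lower there in each plate too, and no difference is read from these levels.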

How the results depend on the processing

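Alternatives were DESeq2, RLE scaling, no filter on low counts, no mitochondrial limit, 10000 UMIs per cell, whole UMIs, other splits of the scores and each plate left out in turn. Refits of a member that changed direction or side of the threshold numbered 19 of 99 between experiments, 13 of 99 for S, 29 of 99 for G2/M, 32 for EMT and 7 of 75 for the interaction, for which DESeq2 gave 5 members no adjusted p. The cause of a change was not tested. Plate levels were also taken with a library size without mitochondrial genes. All 9 then moved by more than their SD over plates, as CDKN1A did from 4.45 to 6.31 in low-resolution replicate 1. Levels by class or tertile were not repeated in this way.

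Between experiments 12.4% of tested genes were called, 8.91% at 10000 UMIs and 7.65% to 9.05% with a plate left out. Members called numbered 1, but 3 with no filter and 0 to 1 with a plate left out. The replicate numbers are shared across experiments, but same-numbered plates did not deviate together (correlation -0.0238 over 12437 genes). With a replicate block 2023 genes against 1547, and 3 members, were called, CCNE2 and CDKN1B being added. For S, 2409 genes (30.8%) were called at 10000 UMIs against 4760, and 2 members by tertiles of the S score. For G2/M, 2581 genes (32.95%) were called at 10000 UMIs against 4832, 2 members with DESeq2 and 2 to 6 members with a plate left out. For EMT, 2768 genes (31.7%) and 2 members were called at 10000 UMIs, against 4647 and 4, 0 members with a split at the median and 1 to 4 with a plate left out. For the interaction 3.47% of tested genes were called, but 1.09% with DESeq2, 2.07% with no mitochondrial limit, 1.26% at 10000 UMIs and 1.30% to 1.60% with a plate left out.

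Log2 fold changes that turned sign were mostly near 0. Between experiments CCND1 gave 0.000436 with no mitochondrial limit and MDM2 0.0156 at 10000 UMIs. With a plate left out CCND1 ran from -0.0611 to 0.0361, CCND3 from -0.26 to 0.17, CDKN1C from -0.14 to 0.28, MYC from -0.43 to 0.17 and MDM2 from -0.21 to 0.17. For S by tertiles of the score CDKN1C gave 0.29 and MDM2 -0.0654, and with a plate left out CDKN1C ran from -0.65 to 0.0915. For G2/M CCND3 gave -0.00372 with DESeq2, -0.00196 with RLE, -0.00507 with no filter, -0.0279 with no mitochondrial limit, -0.0238 at 10000 UMIs and -0.0438 to 0.0425 with a plate left out. For EMT PCNA gave 0.19 with no mitochondrial limit, 0.0717 at 10000 UMIs and 0.0410 with z-scores. In the G1 class alone CCNE2 gave -0.90, CDKN1A -0.0364 and MKI67 -0.15. CCNE2 gave -0.0580 with a split at the median and -0.0657 to 0.23 with a plate left out. For the interaction CDKN1B gave -0.0579 and MKI67 0.21 at 10000 UMIs and CCNE1 -0.28 with z-scores. With a plate left out CCND1 ran from -0.0731 to 0.19, CCNE2 from -0.18 to 1.40, CDKN1A from -0.12 to 0.33 and CDKN1B from -0.00222 to 0.61. CCNE1 gave no EMT value at 10000 UMIs or in the G1 class alone. Leaving out the highest CDKN1C cells was chosen after seeing the data.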

Other observations

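Cells were also divided by whether they held a UMI of MKI67, at 10000 UMIs per cell. CCNE2 stood at 0.257, 0.196, 0.289 and 0.239 counts per 10000 in cells with one, and at 0.0376, 0.0170, 0.128 and 0.0738 in cells without, in low-resolution replicates 1 and 2 and high-resolution replicates 1 and 2. It was higher with MKI67 in 4 of 4 plates, though the lowest value rests on 3 counts. CDKN1B stood at 0.475, 0.380, 0.296 and 0.317 with MKI67 and at 0.376, 0.284, 0.141 and 0.268 without. At this depth this CDK inhibitor gene was thus also higher with the proliferation marker in 4 of 4 plates. When cells were split at full depth its means were closer, 0.301 with MKI67 and 0.268 without. Plates there ran from 0.244 to 0.405 and from 0.157 to 0.366, which overlap. Values plate by plate at full depth are not given here, so the pattern of CDKN1B in each plate is stated for equal depth only. Neither difference was tested.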
